A study of Saccharomyces cerevisiae with 12 samples.

Results

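The 31 genes described here make, salvage and import purines in budding yeast (Saccharomyces cerevisiae), or supply the precursors and the regulators of that synthesis. They were chosen by name from knowledge of the pathway: the ADE genes, MTD1, SHM2, the GCV genes, BAS1, PHO2, the PRS genes, 5 salvage enzymes and the FCY permease family, without the IMD genes. All 31 were found among the 5581 genes that have a probe set of their own on Affymetrix Yeast Genome 2.0 arrays, and all 31 lay above the array background on every array. The study comprised 12 arrays of total RNA, 3 biological replicates for each of 4 groups. Experiment A compared euc1∆ cells, which lack EUC1 (YMR111C), with wild-type cells, and experiment B compared euc1-K231R cells, whose Euc1 has an arginine in place of a lysine, with wild-type cells of its own. Rich medium with 2% glucose and a temperature of 30°C were common to every culture, cells were collected in mid-log phase, and the labels name no other treatment. Euc1 is a DNA-binding protein that marks a few chromosomal sites at which ubiquitin accumulates, and the exchanged lysine is where it is modified with SUMO. The euc1-K231R allele carries a URA3 marker.

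Cells build the purine ring stepwise on phosphoribosyl pyrophosphate (PRPP), and the pathway ends at IMP, from which AMP and GMP are made. Steps of ring synthesis consume glycine and one-carbon units carried by folate, which serine hydroxymethyltransferase, folate dehydrogenases and the glycine cleavage system supply. In yeast the Myb-like factor Bas1 and the homeodomain factor Pho2 switch on these genes together, along with some histidine and glutamine synthesis genes, when purines are scarce, whereas bases taken up from rich medium are recycled by phosphoribosyltransferases.

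Values below are log2 levels made with RMA, a method that normalises arrays and combines the probes of a probe set, and differences are mutant minus wild type on that log2 scale. Genes were tested with limma, a linear model that shares information on the spread between genes, and a gene was called when its p-value, adjusted over all 5581 genes (Benjamini-Hochberg), was under 0.05. The array medians lay between 10.4 and 10.6, and arrays of a group correlated with an r of 0.996 to 0.999 across genes. The EUC1 probe set read 3.72, 3.88 and 3.64 in euc1∆ cells, below the 95th percentile of the fission yeast probe sets (5.26), against 9.02, 9.15 and 9.14 in wild-type cells. In euc1-K231R cells EUC1 read 8.19, 8.15 and 8.12, against 9.18, 9.25 and 9.09 in wild-type cells (log2 fold change -1.02, limma adjusted p = 0.000181), and URA3 was 2.79 higher (limma adjusted p = 3.24e-07). The exchanged residue, the lower EUC1 RNA level and the marker therefore cannot be told apart in experiment B. The arrays do not measure protein, and the authors reported mildly raised Euc1 protein in cells with this mutation. MED11, the gene beside EUC1, was 0.76 lower in euc1∆ cells (limma adjusted p = 0.0147), a call lost in the limma fits without any 1 array other than euc1∆ replicate 3 (adjusted p between 0.0658 and 0.16). Of the 6 a-cell and 4 alpha-cell mating-type markers, 0 were called by limma in either comparison. In euc1∆ 2 a-cell markers (2 lower) and 2 alpha-cell markers (1 higher, 1 lower) had an unadjusted limma p under 0.05, where 12.4% of all genes passed. In euc1-K231R 3 a-cell markers (1 higher, 2 lower) and 1 alpha-cell marker (higher) passed, where 19.4% of all genes did.

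Experiment A addresses the loss of Euc1, which came with a lower MED11 level, and these cannot be told apart in it. Of the 31 purine genes 1 was called by limma, the permease relative FCY22, which was lower. Over all genes limma called 7 (0.125%), 3 higher (0.0538%) and 4 lower (0.0717%), or 3 higher and 8 lower after quantile normalisation. The genes of ring synthesis and one-carbon supply lay on the higher side without any of them being called: 15 of these 16 had a higher mean in euc1∆ cells, with a median difference of 0.13, whereas all genes had a median of 0.0012 and 50.5% of them were higher. Of the 16, 9 had an unadjusted limma p under 0.05, all higher, where 6.36% of all genes were higher at that level and 12.4% passed it in either direction. In 12 of the 16 all euc1∆ arrays lay above all wild-type arrays, which held for 9.84% of all genes. The 16 genes were singled out with these results known, so the counts are descriptions. In bulk RNA a change in every cell and a change in a share of the cells cannot be told apart. The other 15 genes, for regulators, PRPP synthesis, salvage and transport, had 4 higher and 11 lower means. Over the 31 genes together, 9 were higher and 2 lower at an unadjusted limma p under 0.05, where 6% of all genes were lower at that level, and 13 stood apart higher and 2 lower (FCY22 and AMD1), where 18.1% of all genes stood apart, 8.24% on the lower side.

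**Figure D1:**
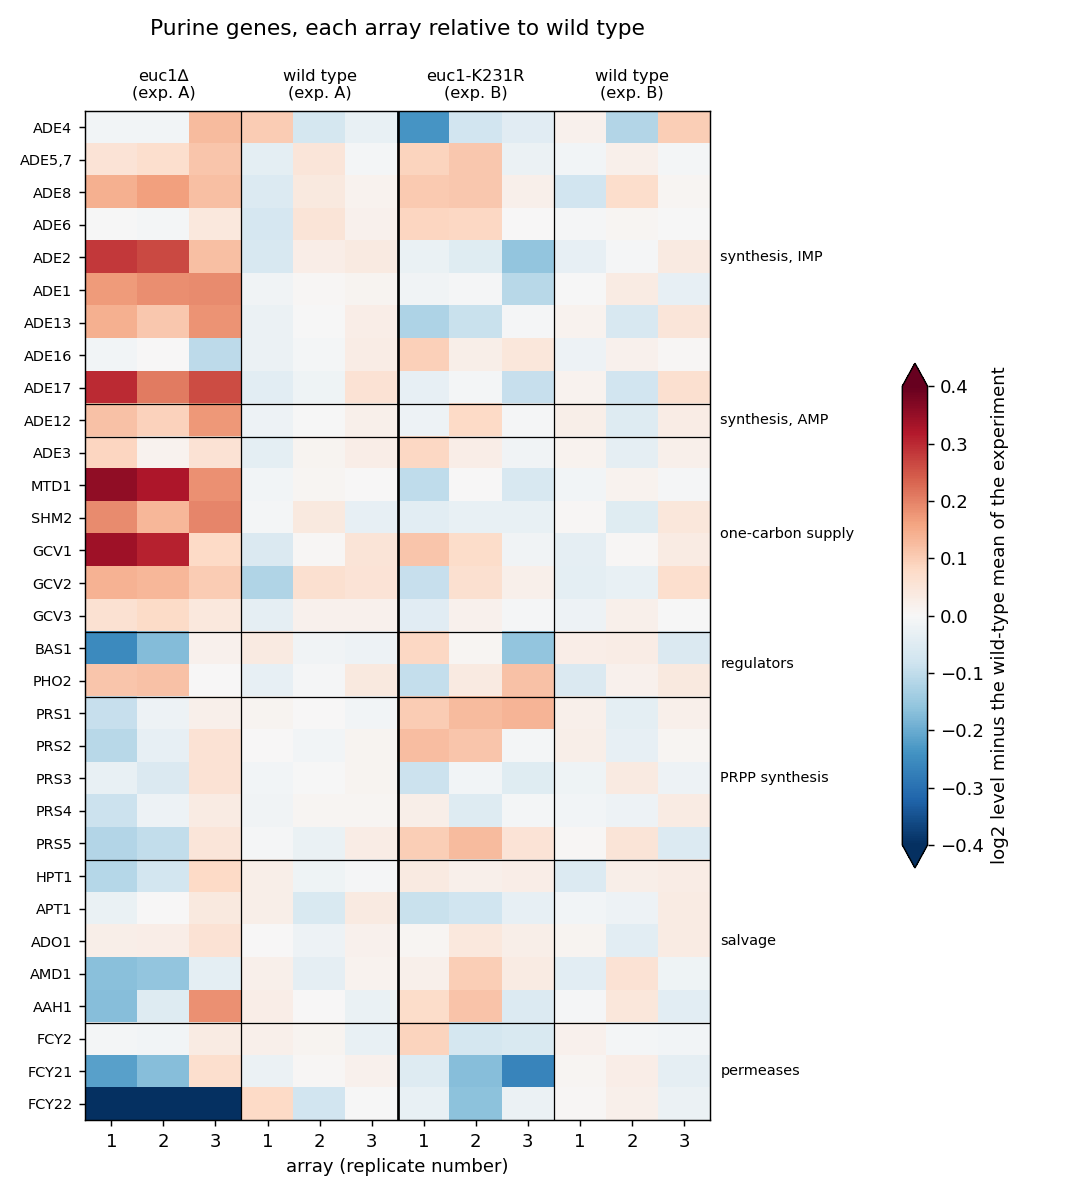
Log2 level of each of the 31 purine genes (rows, by role) on each of the 12 arrays (columns) minus the wild-type mean of the same experiment; red is higher, blue is lower, and the colour scale ends at 0.4. In experiment A the upper rows are mostly red on all 3 euc1∆ arrays and FCY22 is blue on all 3, while PRPP and salvage genes are mostly blue on replicates 1 and 2 and mostly pale red on replicate 3.

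Among the 9 genes that build IMP, 8 had higher means in euc1∆ cells, with a median of 0.14. ADE17 (YMR120C), 1 of 2 genes for the bifunctional enzyme that closes the ring (AICAR transformylase and IMP cyclohydrolase), read 13.50, 13.41 and 13.47 in euc1∆ cells, against 13.16, 13.19 and 13.26 in wild-type cells. No array of the groups overlapped, and the difference was 0.26 ± 0.04 (SE), or 19.4% more signal, with a limma adjusted p of 0.138. Its paralogue ADE16 (YLR028C) read 12.46, 12.47 and 12.37 in euc1∆ cells, against 12.45, 12.46 and 12.50 in wild-type cells, so the groups overlapped (-0.04 ± 0.04 SE), and it was the gene of the 16 with a lower mean. Whether the probe sets of such paralogues share signal was not tested.

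Other enzymes of ring synthesis had differences of 0.14 to 0.22. ADE2 (YOR128C), which encodes the carboxylase whose loss turns colonies red, read 12.62, 12.60 and 12.46 in euc1∆ cells, against 12.27, 12.36 and 12.37 in wild-type cells. ADE1 (YAR015W), the enzyme of the following step, read 12.59, 12.61 and 12.61 in euc1∆ cells, against 12.41, 12.43 and 12.43 in wild-type cells. Both genes had groups that did not overlap, at 0.22 ± 0.05 (SE) for ADE2 and 0.18 ± 0.03 (SE) for ADE1, and ADE1 had the lowest limma adjusted p of the 16, at 0.137. ADE13 (YLR359W), adenylosuccinate lyase, was 0.14 ± 0.04 (SE) higher, with 13.14, 13.11 and 13.18 in euc1∆ cells, against 12.97, 13.00 and 13.03 in wild-type cells. ADE8 (YDR408C), which adds a one-carbon unit from folate to the growing ring, was also 0.14 ± 0.04 (SE) higher, with 12.09, 12.12 and 12.07 in euc1∆ cells, against 11.90, 11.99 and 11.97 in wild-type cells. The arrays of these genes did not overlap between the groups either, and the limma adjusted p was 0.242 for ADE13 and 0.246 for ADE8.

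The genes ADE4, ADE6 and ADE5,7 stood nearer to wild type. ADE4 (YMR300C), the amidotransferase that commits PRPP to purines, read 11.93, 11.93 and 12.07 in euc1∆ cells, against 12.04, 11.87 and 11.91 in wild-type cells, and the groups overlapped (0.03, 95% interval -0.11 to 0.18). ADE6 (YGR061C), which adds nitrogen from glutamine, had a difference of 0.01 (95% interval -0.09 to 0.11), with overlapping arrays. ADE5,7 (YGL234W), a fused enzyme for 2 steps, was 0.08 higher (95% interval -0.01 to 0.17), and its euc1∆ arrays, at 13.30, 13.32 and 13.36, lay just above those of wild type, at 13.21, 13.30 and 13.24. ADE12 (YNL220W), which turns IMP towards AMP, read 13.00, 12.98 and 13.06 in euc1∆ cells, against 12.87, 12.88 and 12.91 in wild-type cells, a difference of 0.13 ± 0.04 (SE, limma adjusted p = 0.259).

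All 6 genes of one-carbon supply had higher means in euc1∆ cells, with a median of 0.15. In 5 of the 6 all euc1∆ arrays lay above all wild-type arrays, which held for 9.84% of all genes. The 6 genes too were singled out with these results known, so the counts are descriptions. MTD1 (YKR080W), a folate dehydrogenase of the cytosol that makes oxidised one-carbon units, read 11.93, 11.90 and 11.76 in euc1∆ cells, against 11.56, 11.58 and 11.58 in wild-type cells. This was the highest difference of the 31 genes, at 0.29 ± 0.05 (SE; 95% interval 0.17 to 0.41), or 22.0% more signal, and its limma adjusted p was 0.158. The euc1∆ arrays of MTD1 spread wider (SD 0.09) than the wild-type arrays (SD 0.01). Without euc1∆ replicate 3, the lowest mutant array, MTD1 was called by limma (0.34, adjusted p = 0.0338). It was called in 4 of 14 alternative settings, with a limma adjusted p of up to 0.467 over the 14.

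SHM2 (YLR058C), the cytosolic serine hydroxymethyltransferase that moves a carbon from serine to folate, read 13.45, 13.40 and 13.46 in euc1∆ cells, against 13.26, 13.31 and 13.23 in wild-type cells. The difference was 0.17 ± 0.04 (SE, limma adjusted p = 0.223). ADE3 (YGR204W), the folate enzyme with several activities in the same compartment, differed by 0.05 (95% interval -0.03 to 0.14), and its arrays overlapped. Of the mitochondrial glycine cleavage genes, GCV1 (YDR019C, the T protein) read 11.54, 11.51 and 11.28 in euc1∆ cells, against 11.14, 11.21 and 11.25 in wild-type cells. Its difference of 0.24 ± 0.07 (SE) had replicate 3 close to wild type and a limma adjusted p of 0.288. GCV2 (YMR189W, the P protein) was 0.12 higher and GCV3 (YAL044C, the H protein) 0.06 higher, with 95% intervals that reached below 0, at -0.01 and -0.02. GCV2 read 12.18, 12.17 and 12.14 in euc1∆ cells, against 11.92, 12.11 and 12.10 in wild-type cells. GCV3 read 13.53, 13.55 and 13.51 in euc1∆ cells, against 13.44, 13.49 and 13.49 in wild-type cells. Neither gene had overlapping groups, and in GCV2 wild-type replicate 1 lay far below the other arrays.

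**Figure D2:**
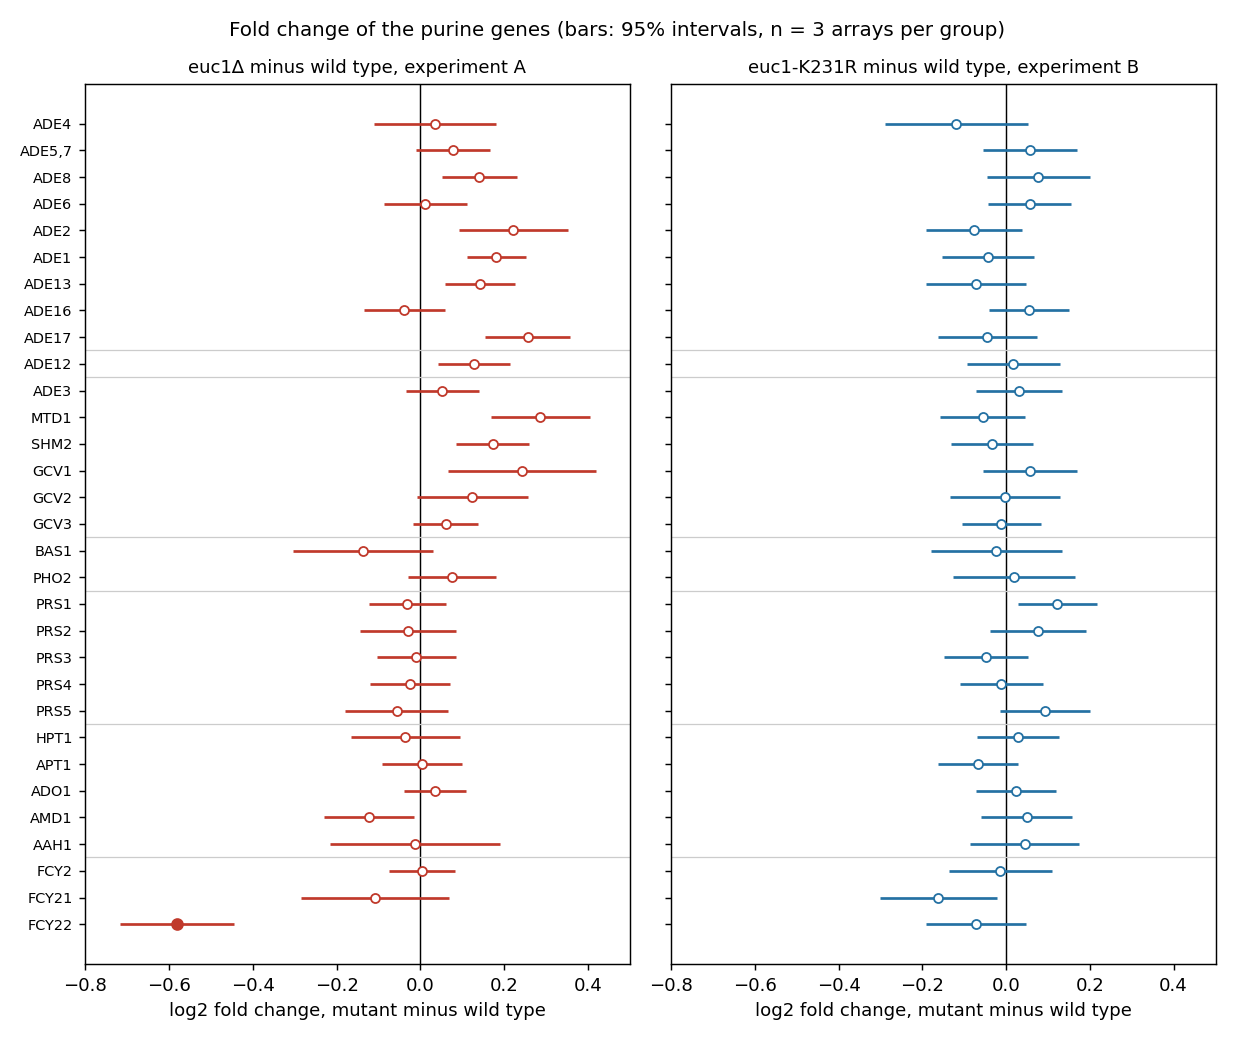
Log2 fold change (horizontal axis, mutant minus wild type) of each purine gene with its 95% interval, for euc1∆ in experiment A (left) and euc1-K231R in experiment B (right), from 3 arrays against 3; filled points are called at an adjusted p under 0.05. On the left FCY22 is the filled point at -0.58 and most synthesis and one-carbon genes lie between 0 and 0.29; on the right no point is filled and all values lie between -0.16 and 0.12.

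Neither regulator was called. BAS1 (YKR099W) read 10.54, 10.63 and 10.82 in euc1∆ cells, against 10.83, 10.78 and 10.78 in wild-type cells, so replicates 1 and 2 lay below every wild-type array and replicate 3 within their range (-0.14, 95% interval -0.30 to 0.03). PHO2 (YDL106C) read 9.66, 9.67 and 9.55 in euc1∆ cells, against 9.52, 9.54 and 9.59 in wild-type cells, with replicates 1 and 2 above and replicate 3 within (0.08, 95% interval -0.03 to 0.18). The mean of BAS1 was thus lower in the cells in which the means of most synthesis genes were higher, and none of these genes was called.

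The 5 PRS genes (PRS1 to PRS5: YKL181W, YER099C, YHL011C, YBL068W and YOL061W), whose products assemble into PRPP synthetase, had differences of -0.06 to -0.01, all below 0, and in 0 of the 5 did the groups stand apart (limma called 0, and 0 had an unadjusted p under 0.05). PRS5 had the lowest value of the 5, with 11.61, 11.63 and 11.78 in euc1∆ cells, against 11.72, 11.70 and 11.76 in wild-type cells, so that replicates 1 and 2 lay below and replicate 3 above every wild-type array. Of the 5 salvage genes, 2 had higher and 3 lower means. AMD1 (YML035C), AMP deaminase, which returns AMP to IMP, read 10.88, 10.89 and 11.01 in euc1∆ cells, against 11.07, 11.02 and 11.07 in wild-type cells. Its groups did not overlap, its difference was -0.12 ± 0.05 (SE), and it was not called (limma adjusted p = 0.358). The adenine deaminase gene AAH1 (YNL141W) had the widest euc1∆ spread of the 31 (SD 0.18), at 12.27, 12.38 and 12.62 in euc1∆ cells, against 12.46, 12.44 and 12.41 in wild-type cells. HPT1 (YDR399W) and APT1 (YML022W), the phosphoribosyltransferases for hypoxanthine and guanine and for adenine, had differences of -0.04 and 0.0044 with overlapping arrays. ADO1 (YJR105W), adenosine kinase, was 0.04 higher without overlap, at 13.46, 13.46 and 13.49 in euc1∆ cells, against 13.43, 13.41 and 13.45 in wild-type cells.

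The PRPP and salvage genes differed between the euc1∆ arrays. Their mean over 10 genes, relative to the wild-type mean, was -0.09, -0.05 and 0.05 on euc1∆ replicates 1, 2 and 3, whereas that of the 16 synthesis and one-carbon genes was 0.15, 0.13 and 0.12. On the same arrays 10 ribosome biogenesis genes stood at -0.19, -0.16 and 0.01, and 9 general stress genes at 0.22, 0.02 and -0.23. Replicate 3 was therefore higher than the other mutant arrays in ribosome biogenesis and salvage genes and lower in stress genes. The IMP genes had means of 0.12, 0.11 and 0.12 on the 3 arrays, whereas the one-carbon genes had 0.20, 0.17 and 0.11, with MTD1 and GCV1 lowest on replicate 3. The part of the ribosome biogenesis and stress genes' state in the purine values was not tested. Without euc1∆ replicate 3 the median of the 31 genes was -0.0033 in place of 0.034, and 9 of the 10 PRPP and salvage genes were lower, 8 of them without overlap. In that setting 25 of the 31 (80.6%) had groups apart, but so had 41.6% of all genes, limma called 2 of the 31 and 21 genes in all, and the synthesis and one-carbon genes still had 12 of 16 apart and a median of 0.13.

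**Figure D3:**
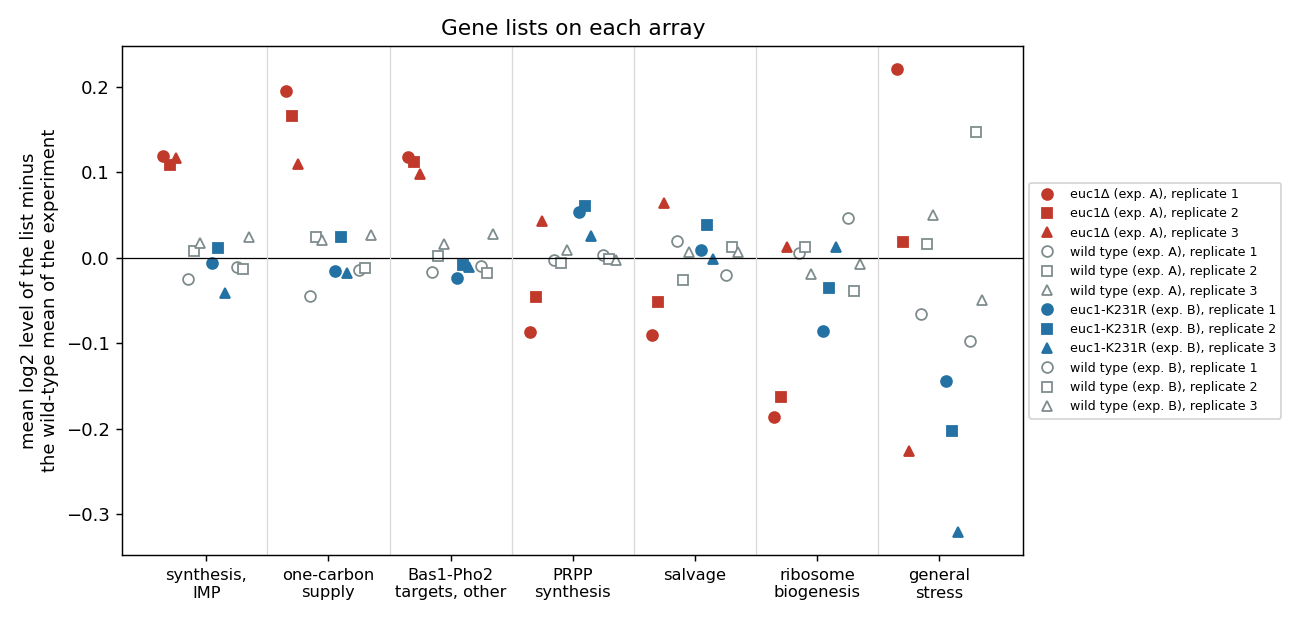
Mean log2 level of each gene list on each array minus the wild-type mean of its experiment (vertical axis); filled symbols are mutant arrays, open symbols wild-type arrays, and circles, squares and triangles are replicates 1, 2 and 3. IMP synthesis, one-carbon supply and the other Bas1-Pho2 targets lie above 0.09 on every euc1∆ array, and the PRPP, salvage and ribosome biogenesis lists put euc1∆ replicate 3 above replicates 1 and 2, while the general stress list spreads over the 3 arrays with replicate 2 between the others.

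FCY22 (YER060W-A), a relative of the purine-cytosine permease gene FCY2, fell by 0.58 ± 0.06 (SE; 95% interval -0.72 to -0.45), a change of -33.1% on the linear scale. It read 6.67, 6.56 and 6.71 in euc1∆ cells, against 7.31, 7.15 and 7.23 in wild-type cells, so that all 3 mutant arrays lay well below the lowest wild-type array and above the background. The limma adjusted p was 0.031. The call was kept in 7 of 14 alternative settings. Leaving out 1 array ended it in 5 of 6 limma fits, at an adjusted p of 0.112, 0.0956 and 0.212 for wild-type replicates 1, 2 and 3 and of 0.0916 and 0.147 for euc1∆ replicates 1 and 2, with differences of -0.62 to -0.54. With all probe sets of the array in the limma fit its adjusted p was 0.152, and with the replicate number as a block it was 0.116. The neighbouring gene FCY21 (YER060W) read 9.18, 9.23 and 9.46 in euc1∆ cells, against 9.37, 9.40 and 9.41 in wild-type cells, with replicate 3 above wild type and the other arrays below (-0.11, 95% interval -0.28 to 0.07). FCY2 (YER056C) itself, the main importer of adenine, hypoxanthine and cytosine, read 12.88, 12.88 and 12.92 in euc1∆ cells, against 12.91, 12.90 and 12.86 in wild-type cells, a difference of 0.0035 with a 95% interval of -0.08 to 0.08.

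Further genes of the pathway were described beside the 31. Their lists too were chosen with earlier results of these data known, so the counts are descriptions. The 5 other Bas1-Pho2 targets, HIS1, HIS4, HIS5, HIS7 and GLN1, were all higher in euc1∆ cells, with a median of 0.12, from 0.04 (HIS1) to 0.17 (HIS7). Limma called 0 of the 5, while 3 had an unadjusted p under 0.05, all higher (6.36% of all genes), and 4 had groups apart on the higher side (9.84% of all genes). Of 11 other one-carbon and folate genes, 6 were higher, with a median of 0.0072, between -0.06 (FOL2) and 0.09 (MET13), 0 were called by limma, 0 had an unadjusted p under 0.05 and 1 had groups apart. Of 13 other salvage and nucleotide kinase genes, 11 were higher by small amounts, with a median of 0.04 and a highest value of 0.10 (ADK2). Limma called 0 of these 13, and 0 had an unadjusted p under 0.05, while 4 had groups apart, all higher.

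Experiment B addresses Euc1 without the lysine that carries SUMO. Of the 31 purine genes limma called 0 in euc1-K231R cells, where it called 50 genes in all (0.896%), 10 higher (0.179%) and 40 lower (0.717%), or 25 higher and 44 lower after quantile normalisation. At an unadjusted p under 0.05, 1 of the 31 was higher (PRS1) and 1 lower (FCY21), where 19.4% of all genes passed, 8.94% higher and 10.4% lower. Higher means were seen for 15 genes and lower means for 16, with a median of -0.0035, and the values ran from -0.16 to 0.12. In 5 of the 31 the groups did not overlap, 3 higher and 2 lower, a share of 16.1%, where 25.8% of all genes stood apart, 14% higher and 11.8% lower. The count was 12 without wild-type replicate 2 and 14 without euc1-K231R replicate 3, where 36.3% and 46.6% of all genes stood apart. Of the 16 synthesis and one-carbon genes, 7 were higher and 9 lower, with a median of -0.0073. Their 95% intervals, each for a single gene, had a lowest limit of -0.29 (ADE4) and a highest limit of 0.20 (ADE8).

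Some single genes had arrays apart in euc1-K231R cells. PRS1, a subunit gene of PRPP synthetase, read 13.14, 13.16 and 13.17 in euc1-K231R cells, against 13.05, 13.00 and 13.06 in wild-type cells, a difference of 0.12 ± 0.04 (SE, limma adjusted p = 0.178). PRS5 was 0.09 higher, with 12.26, 12.29 and 12.22 in euc1-K231R cells, against 12.17, 12.22 and 12.11 in wild-type cells. The groups stood apart by very little in PRS5, and the same held for ADE16 and APT1. ADE16 was 0.05 higher, at 12.46, 12.39 and 12.41 in euc1-K231R cells, against 12.34, 12.38 and 12.37 in wild-type cells. APT1 was at -0.07, with 13.09, 13.10 and 13.14 in euc1-K231R cells, against 13.17, 13.16 and 13.21 in wild-type cells.

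The permease family had no called member in euc1-K231R cells. FCY21 read 9.26, 9.14 and 9.05 in euc1-K231R cells, against 9.32, 9.34 and 9.28 in wild-type cells (-0.16 ± 0.06 SE, limma adjusted p = 0.212), and the groups did not overlap. FCY22 read 7.47, 7.34 and 7.48 in euc1-K231R cells, against 7.50, 7.52 and 7.48 in wild-type cells, a difference of -0.07 with a 95% interval of -0.19 to 0.05 that was 0.05 after quantile normalisation. FCY2 differed by -0.01, BAS1 by -0.02 and PHO2 by 0.02, each with overlapping arrays.

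The 3 further pathway lists had 0 calls by limma in euc1-K231R cells. Of the 5 other Bas1-Pho2 targets 3 were higher and 2 lower, and those 2, HIS5 (-0.15) and GLN1 (-0.13), were the ones with an unadjusted p under 0.05, where 19.4% of all genes passed. Of the 11 one-carbon and folate genes 6 were higher, from -0.04 (MET13) to 0.12 (DFR1), with 1 at an unadjusted p under 0.05. Of the 13 salvage and kinase genes 10 were higher, from -0.10 (GUD1) to 0.16 (MEU1). At an unadjusted limma p under 0.05, 4 of the 13 were higher and 0 lower, where 8.94% of all genes were higher. The groups stood apart in 5 on the higher side and 1 on the lower, where 14% and 11.8% of all genes did. The 9 general stress genes had a median of -0.05, -0.04 and -0.13 on euc1-K231R replicates 1, 2 and 3, and 3 of the 9 had higher means. Their mean was lower, at -0.14, -0.20 and -0.32, through HSP12 (-0.88, limma adjusted p = 0.0268) and DDR2 (-0.84, limma adjusted p = 0.0486), both called lower, and HSP26 (-0.38, limma adjusted p = 0.146). The call of HSP12 was lost without wild-type replicate 1 or euc1-K231R replicate 2, and that of DDR2 without any 1 array other than euc1-K231R replicate 1 (limma adjusted p between 0.0593 and 0.219). With all probe sets neither was called (limma adjusted p of 0.079 for HSP12 and 0.146 for DDR2). DDR2 was not called with the replicate number as a block either (limma adjusted p = 0.11). The 10 ribosome biogenesis genes stood at a mean of -0.09, -0.04 and 0.01, with 0 called by limma and 1 at an unadjusted p under 0.05.

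The effects of the mutations were compared directly in a limma fit of all 12 arrays, in which the effect of euc1-K231R was subtracted from that of euc1∆, each against its own wild type. Of the 31 genes 2 were called, 1 in each direction, where 70 of all genes (1.25%) were, 43 higher (0.77%) and 27 lower (0.484%), or 74 higher and 23 lower after median centring, and 9 of the 31 had an unadjusted p under 0.05, 6 higher and 3 lower, where 16.8% of all genes did, 8.64% higher and 8.12% lower. FCY22 differed by -0.51 ± 0.08 (SE; limma adjusted p = 0.0117), from -0.58 in euc1∆ and -0.07 in euc1-K231R. It was called in each of the 19 alternative settings tried, with adjusted p up to 0.0478. MTD1 differed by 0.34 ± 0.07 (SE; limma adjusted p = 0.0328), from 0.29 in euc1∆ and -0.06 in euc1-K231R. It was called in 6 of the 19 alternative settings. In euc1-K231R cells MTD1 read 12.20, 12.30 and 12.24, against 12.29, 12.32 and 12.29 in wild-type cells, with overlapping arrays. Its call was kept without euc1∆ replicate 3 and lost without any 1 of the other 11 arrays, namely wild-type replicates 1, 2 and 3 of both experiments, euc1∆ replicates 1 and 2 and euc1-K231R replicates 1, 2 and 3 (limma adjusted p between 0.0501 and 0.0906).

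Of the 16 synthesis and one-carbon genes 14 (13 after quantile normalisation, where ADE5,7 turned) had a positive difference of effects, with a median of 0.14, against a median of -0.00074 over all genes. After MTD1 the values were highest in ADE17 (0.30, limma adjusted p = 0.0568), ADE2 (0.30, 0.0925), ADE1 (0.22, 0.0703), ADE13 (0.21, 0.122) and SHM2 (0.21, 0.0925), none of them called. ADE2 was called without euc1∆ replicate 3 (limma adjusted p = 0.0373) and ADE17 without wild-type replicate 2 of experiment B (0.0464). Of the 19 alternative settings, ADE2 and ADE17 were called in 4 each, ADE1 in 3, SHM2 in 2 and ADE13 in 1. Over the 19 the limma adjusted p reached 0.24 for ADE2 and 0.185 for ADE17. ADE6 (-0.04) and ADE16 (-0.09) had negative differences. Of the PRS genes 4 of 5 (3 of 5 after median centring) had negative differences, the lowest being PRS1 (-0.15, limma adjusted p = 0.176), and AMD1 was at -0.17 (limma adjusted p = 0.217).

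Among the 3 further pathway lists 1 gene was called in this comparison, GLN1, which encodes the glutamine synthetase that provides nitrogen for the ring. It read 13.85, 13.86 and 13.87 in euc1∆ cells, against 13.73, 13.74 and 13.70 in wild-type cells, and 13.72, 13.70 and 13.73 in euc1-K231R cells, against 13.84, 13.86 and 13.85 in wild-type cells. Each mutant stood apart from its own wild type, in opposite directions, by 0.14 ± 0.03 (SE, limma adjusted p = 0.225) and by -0.13 ± 0.04 (SE, limma adjusted p = 0.149). The difference between the effects was 0.27 ± 0.04 (SE, limma adjusted p = 0.0124), called in 17 of 19 alternative settings. Of the general stress genes 2 were called as well, HSP12 at 0.98 ± 0.19 (SE, limma adjusted p = 0.0328) and HSP26 at 0.75 ± 0.14 (SE, limma adjusted p = 0.0328). HSP26 differed by 0.37 in euc1∆ cells and by -0.38 in euc1-K231R cells, each without overlap with wild type and neither called. The call of HSP12 was lost without wild-type replicate 1, 2 or 3 of experiment A, euc1∆ replicate 1 or 2, wild-type replicate 1 of experiment B or euc1-K231R replicate 2 or 3, and that of HSP26 without the same arrays other than wild-type replicate 1 of experiment B (limma adjusted p between 0.0514 and 0.0909). Neither HSP12 nor HSP26 was called with all probe sets or with the replicate number as a block.

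**Figure D4:**
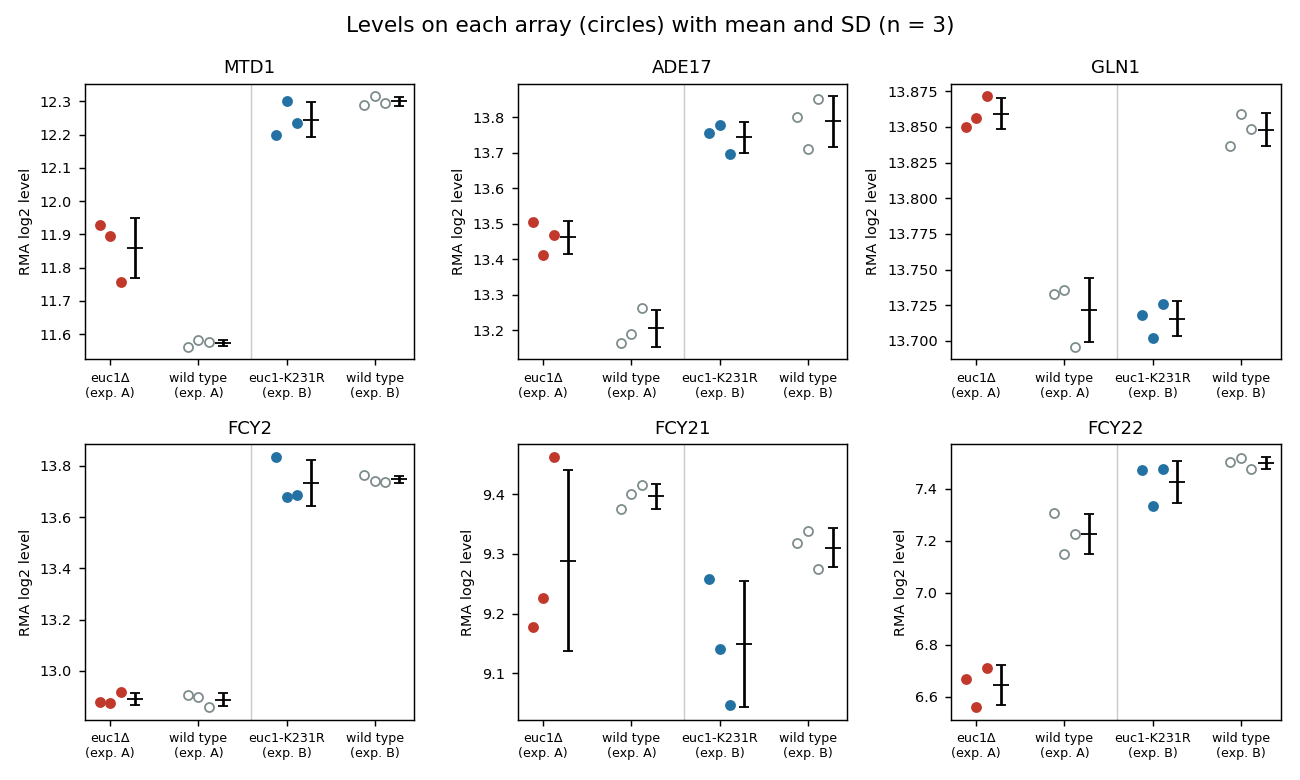
RMA log2 level on each array (circles, n = 3 per group) with the mean and SD beside them, for MTD1, ADE17, GLN1 and the 3 permease genes, the mutant left of its wild type in experiments A and B; each panel has its own vertical scale. MTD1 and ADE17 stand above wild type in euc1∆ and overlap with it in euc1-K231R, GLN1 is above in euc1∆ and below in euc1-K231R, and FCY22 is below in euc1∆ at 6.56 to 6.71, against 7.15 to 7.31 in wild type.

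Levels cannot be tested between the experiments, whose arrays share no exact value and were taken as normalised separately, but the wild-type groups are given side by side. The wild-type mean was higher in experiment B than in experiment A for 29 of the 31 genes, and for 69.0% of all genes. GCV1 had wild-type means of 12.32 in experiment B and 11.20 in experiment A, and FCY2 of 13.75 in experiment B and 12.89 in experiment A, while ADE16 had 12.36 in experiment B and 12.47 in experiment A. The mean over the 16 synthesis and one-carbon genes was 13.17 in experiment B and 12.60 in experiment A, and that over all genes 10.49 in experiment B and 10.34 in experiment A. The part of strain, culture and normalisation in these values was not tested. The median SD within a group was 0.06 in euc1∆ cells, against 0.03 in wild-type cells, for the 31 genes, and 0.06 in euc1∆ and 0.05 in wild-type cells for all genes. In experiment B it was 0.05 in euc1-K231R cells, against 0.04 in wild-type cells, for the 31 genes, and 0.07 in euc1-K231R and 0.06 in wild-type cells for all genes.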

How the data were processed

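Biotin-labelled antisense RNA from 300 ng of total RNA was hybridised to 12 Affymetrix Yeast Genome 2.0 arrays. The authors deposited log2 expression values for 10928 probe sets, made with RMA, which corrects background, normalises by quantiles and summarises probes. Per the submitters' processing notes the tools were RMA and limma. No source used here gives their versions or the build of the array annotation, so no coordinates or sequences are printed. The authors' columns of fold changes and p-values were not used, and their annotation column served to find each gene's probe set. Of 5713 S. cerevisiae probe sets, 132 that match several transcripts were left out, which left 5581 genes, 5564 of them found in a RefSeq gene table of assembly R64 used for names. Probe sets for S. pombe, a yeast absent from the samples, gave the background (95th percentile 5.26 in experiment A and 5.33 in experiment B).

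Pairs of arrays shared 179 to 216 exact values within experiment A, 42 to 86 within B and 0 across, so the experiments were taken as normalised separately. Each mutant was compared with its own wild type with limma 3.58.1 in R 4.3.3 (lmFit and eBayes, 6 arrays), and the effects with each other in a 12-array fit with 4 group means. Intervals are 95% and belong to single genes. The script was tested on simulated data. The series calls the replicates biological. The limma p-values set a mean difference against the spread between these arrays, which limma estimates with information shared between genes. The number of arrays limits the precision.

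The 31 genes and the further lists were chosen with earlier results of these data known. All 31 are named. Those whose groups did not overlap or whose p was lowest have values per array. Genes of the further lists are named where called, and those of the pathway lists also by their lowest and highest fold change. HIS5, the listed Bas1-Pho2 targets and the genotype checks are named besides. The alternatives were quantile normalisation, median centring, a trended robust prior, the 12-array fit, array weights, a filter at the S. pombe level, all probe sets, the replicate number as a block, and leaving out each array. A planned count of a Bas1 motif in promoters was not run. Plots used matplotlib 3.10.9 (Python 3.11.15).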

Additional observations from a re-analysis of the deposited data

Results flagged for a closer look

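The effects of the 2 mutations were called different, by a limma test of the difference itself (euc1∆ effect minus euc1-K231R effect), in 2 of the 31 genes. FCY22 had a difference of -0.51 (limma adjusted p = 0.0117) and MTD1 of 0.34 (limma adjusted p = 0.0328). Of the other genes named, GLN1 differed by 0.27 (limma adjusted p = 0.0124), HSP12 by 0.98 and HSP26 by 0.75 (limma adjusted p = 0.0328 each). Of the 19 alternative settings, FCY22 was called in 19, GLN1 in 17, HSP26 in 10, HSP12 in 9 and MTD1 in 6. In GLN1 and HSP26 the mutant arrays lay above wild type in euc1∆ and below it in euc1-K231R. The genes altered by the strain construction or beside EUC1 differed too, EUC1 by -4.34 (limma adjusted p = 1.27e-10), URA3 by -2.78 (limma adjusted p = 1.06e-09) and MED11 by -0.88 (limma adjusted p = 0.000184). The groups held 3 arrays each, too few for a test of single arrays as outliers.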

How the results depend on the processing

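No called value changed sign in the alternatives tried. For euc1∆ against wild type, quantile normalisation called 11 genes. The trended robust prior called 5 of the 31 and 20 genes, the 12-array fit 2 and 12, array weights 3 and 42, and all probe sets 0 and 2. Without 1 array, 0 to 2 of the 31 and 2 to 21 genes were called, with a median of the 31 of -0.0033 to 0.042 and 15 to 25 of them apart. Leaving out euc1∆ replicate 3 gave the 21 genes, wild-type replicate 1 gave 3, and each of the other 4 arrays gave 2. For euc1-K231R, median centring called 110 genes, with a median of the 31 of -0.021, the 12-array fit 124 genes and all probe sets 20. Array weights called 7 of the 31 and 1892 genes, with a median of 0.020, but the weight estimate stopped before converging, as it did for the difference (11 of the 31, 1157 genes). Without 1 array, 0 of the 31 and 11 to 103 genes were called, with a median of -0.0093 to 0.024 and 6 to 14 apart. Leaving out euc1-K231R replicate 3 gave 103 genes and replicate 2 gave 11, while wild-type replicate 1 gave 17 and replicate 2 gave 24. Where the share of all genes apart without 1 array is given above, it rose as well. The counts apart in this section are therefore not results about the 31 genes, and no share stands beside the 8 under median centring. For the difference, median centring called 5 of the 31, the trended robust prior 6, and all probe sets 1 and 27 genes. Without 1 array, 1 to 3 of the 31 and 21 to 75 genes were called. The cause of these moves was not tested.

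With the replicate number as a block, limma called 0 of the 31 and 1 gene for euc1∆, 0 and 27 for euc1-K231R, and 1 (FCY22) and 21 for the difference. Deviations of same-numbered arrays from their group means had an r of -0.20, 0.11 and -0.21 in experiment A, and -0.22, -0.09 and 0.30 in B. Arrays of different number had an r of -0.36 to 0.41. With 3 arrays per group these values cannot decide whether the numbers pair the samples.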
